A study of Mus musculus with 4 samples.

Results

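The comparison described here is that of newborn (P0) cerebral cortex from 1 Tsku knockout mouse and 1 wild-type mouse, each profiled as a single-cell RNA-seq library. Its members are all cell barcodes of those 2 libraries that hold 500 or more counts in 300 or more genes, with no more than 10% of the counts from mitochondrially encoded genes. They number 2483 of the 7210 barcodes that pass the same filter in the 4 libraries of the study: 1047 from the wild type and 1436 from the knockout. The other 2 libraries are embryonic day 14.5 (E14.5) cortex with the same 2 genotype labels. The study asked how neuron and glia production proceed in the developing neocortex of mice lacking Tsukushi; each library came from 1 mouse, tissue was dissociated with trypsin and cells were captured on beads.

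The product of Tsku, Tsukushi, belongs to the small leucine-rich proteoglycans; it is secreted and binds extracellular ligands and receptors of several signalling pathways, among them BMP, FGF, Notch and Wnt. In the mouse cortex, radial glia first produce neurons, directly or through intermediate progenitors, and around birth switch to making astrocytes and oligodendrocyte precursors. Newborn cortex therefore holds young excitatory neurons of deep and upper layers, inhibitory interneurons that migrated in from the ventral forebrain, glial precursors, and the cells of vessels, meninges and blood.

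All counts of a gene were summed over the kept barcodes of a library and expressed as CPM, counts per 1000000 of the library's sum. A difference is given as the log2 ratio of knockout to wild type, with a 95% interval from counting error in square brackets. With 1 mouse per genotype there is no replicate, so no test and no p-value were possible, and the difference between genotypes cannot be told apart from the difference between 2 mice, 2 dissections or 2 library preparations. A gene was called higher or lower when the ratio was at least 1.5-fold and its counting interval excluded 1. In such sums, more cells of a type and more RNA per cell cannot be told apart. To show how far a value moves with the makeup of the libraries, most results are given a second time with the same share of each cell cluster in both libraries: 16 clusters with at least 20 barcodes in both libraries, each weighted by the mean of its 2 shares (84.4% of the knockout and 92.3% of the wild-type barcodes). Calls at that second value keep the interval width of the full sums, which understates counting error where fewer counts enter. The other 8 of the 24 clusters are left out of that second value rather than reweighted. Among their leading genes are Reln and Trp73; Foxp2, Foxp1 and Six3; Adarb2 and Htr3a; Nwd2 and Nts; Col1a2 and Col3a1; Rsph1 and Foxj1; Neurod1 and Nrp2; and the haemoglobin genes.

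The wild-type library held 6042033 counts and the knockout library 8894856, with a median of 4807 and 5060 counts and of 2414 and 2530 genes per barcode. The median share of mitochondrially encoded counts per barcode was 1.32% and 1.19%. No barcode was shared between the 2 libraries, and doublets were not removed. Both libraries carried the dorsal cortical factor Emx1, at 34.4 CPM in the wild type and 56.1 CPM in the knockout, and the projection neuron factor Tbr1, at 101 and 78.5 CPM. Of genes that mark neighbouring tissue, the thalamic factor Gbx2 had 1 and 0 counts, Ttr, the leading transcript of choroid plexus, 2 and 13, the folate receptor Folr1 2 and 16, and Lhx9 3 and 199. Of 9 genes in the thalamic list 5 were called higher in the knockout and none lower (median 0.81), and of 4 choroid plexus genes 3 and none. Shox2, listed as thalamic, had no count in either library. Without 2 clusters made almost entirely of knockout barcodes, 3 of the 9 thalamic genes were called higher (median 0.35). Of 2 choroid plexus genes still tested 1 was called higher. Those clusters held 96.9% of the knockout counts of the choroid plexus gene Calml4. Of the sex-linked genes, the Y-linked Ddx3y had 666 and 1183 counts and Xist had 0 and 1, so that both libraries carried Y-linked transcripts. In the 4 libraries of the study, the E14.5 library labelled knockout stood apart, with 1 count of Ddx3y and 6707 of Xist against 496 and 3 in the E14.5 wild type.

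Tsku itself had 42 counts in the wild-type library (6.95 CPM, interval 5.01 to 9.40) and 0 in the knockout library. At the wild-type level, 61.8 counts would have been found in the knockout library. With 3 counts put in for the 0, Tsku was 20.6-fold lower in the P0 knockout. The upper end of the counting interval was a ratio of 0.0624. The E14.5 library labelled knockout did not lack the gene: it held 74 counts (5.14 CPM) beside 54 counts (9.63 CPM) in the E14.5 wild type, a ratio of 0.533 (interval 0.371 to 0.772). E14.5 values are therefore set beside the P0 values below for the library labelled E14.5 knockout, not as a second knockout.

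Of 13846 genes with at least 30 counts over the 2 P0 sums, 1156 (8.35%) were called higher and 451 (3.26%) lower in the knockout. The median log2 ratio was 0.05, and 7883 genes (56.9%) lay above 0. Higher calls made up 71.9% of all calls. The counts called in each list below are to be read beside these shares of 8.35% and 3.26%. At a threshold of 2-fold, 488 genes (3.52%) were called higher and 143 (1.03%) lower. With the same share of each cluster in both libraries, 540 of 13289 genes (4.06%) were called higher and 403 (3.03%) lower, so that higher calls made up 57.3%. Of the genes called higher and tested under both settings, 437 of 1022 (42.8%) stayed called, and of those called lower 239 of 423 (56.5%). Nts, the gene of the neuropeptide neurotensin, was named after its value was seen: 83 counts in the wild type and 1 in the knockout, a log2 ratio of −6.93 [−12.25, −4.42]. A single barcode held 63.9% of the wild-type counts of Nts. Without the top barcode of each library no knockout count was left, so the value of −3.88 is the one that 3 counts give. Lhx9, a LIM homeobox factor of medial and diencephalic regions, had 3 and 199 counts (5.49 [3.93, 7.78]). With each barcode thinned to 1500 counts it stood at 3.32, where the wild type had no more than the 3 counts of the floor. Genes at 0 in 1 library, such as Tsku, are drawn at the value that 3 counts give and take no rank among the others.

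**Figure D1:**
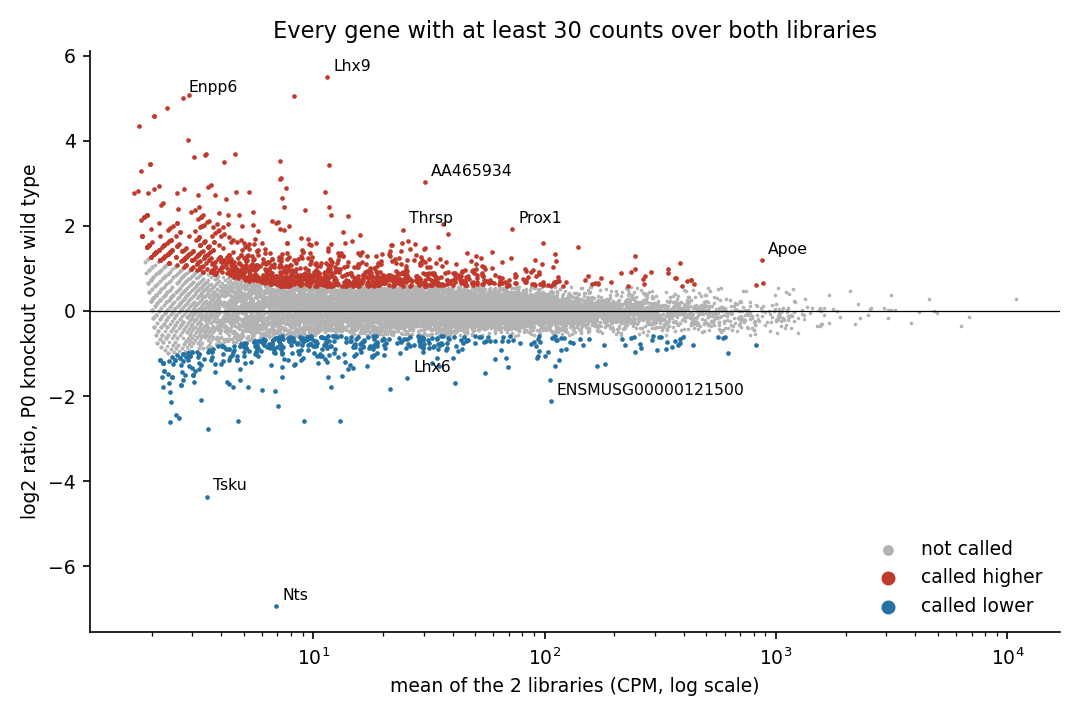
Log2 ratio of P0 knockout to wild type (vertical axis) against the mean CPM of the 2 libraries (horizontal axis, log scale) for the 13846 genes tested; each point is a gene, red where called higher, blue where called lower, grey where not called. Nts lies at −6.93, Lhx9 at 5.49 and Tsku at its bound of −4.37, and the points fan out as the level falls.

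Among genes with at least 300 counts and no single dominant barcode, the 10 with the highest ratios included genes of neuronal identity, glia and lipid handling. AA465934, a transcript of unassigned function, led with 40 and 482 counts, or 6.62 and 54.2 CPM (3.03 [2.57, 3.54]). It stood at 2.92 with the same cluster shares, and at E14.5 the levels were 6.06 CPM in the wild type and 34.1 CPM in the library labelled knockout. Prox1, a homeobox factor of dentate gyrus neurons and interneurons, had 182 and 1016 counts (1.92 [1.69, 2.16]). Of the knockout counts of Prox1, 498 lay in 2 clusters made almost entirely of knockout barcodes, and with the same cluster shares its log2 ratio was 1.16. Tnfrsf19, a TNF-receptor family member of progenitors and glia, had 439 and 1841 counts (1.51 [1.36, 1.66]). Mgll, which degrades the endocannabinoid 2-arachidonoylglycerol, had 75 and 346 counts (1.65 [1.28, 2.03]). Npc1, the lysosomal cholesterol exporter, had 198 and 765 (1.39 [1.16, 1.62]), and Gabrb1, a GABA-A receptor subunit, 157 and 594 (1.36 [1.11, 1.62]). Dusp14, Nrp2, Pcdh15 and Pnp completed the set at 1.56, 1.51, 1.49 and 1.45. At equal cluster shares Nrp2, a semaphorin receptor, and Pcdh15 dropped to 0.42 and 0.44 and were no longer called.

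The lowest ratios under the same rule were largely those of genes of neurons. ENSMUSG00000121500, which carries no gene symbol in the files, fell from 1044 to 352 counts, or from 173 to 39.6 CPM (−2.13 [−2.30, −1.95]). At E14.5 it stood at 189 CPM in the wild type and 31.9 CPM in the library labelled knockout. Bcl11b, the factor of subcerebral and striatal neurons, had 1545 and 965 counts (−1.24 [−1.35, −1.12]). The striatal and cortical factor Foxp1 had 949 and 572 (−1.29 [−1.44, −1.14]), and Gabra2, a GABA-A receptor subunit, 957 and 458 (−1.62 [−1.78, −1.46]). Lhx6, the factor of interneurons from the medial ganglionic eminence, had 230 and 114 (−1.57 [−1.91, −1.24]). After reweighting to equal cluster shares, Gabra2 remained called at −1.37, whereas Foxp1, Bcl11b and Lhx6 stood at −0.35, −0.34 and −0.04. For Foxp1 and Bcl11b those values leave out the cluster led by Foxp2, Foxp1 and Six3, which held 443 of the 949 and 540 of the 1545 wild-type counts. Igfbp3, an insulin-like growth factor binding protein, had 378 and 172 counts (−1.69 [−1.96, −1.43]), of which 228 and 36 lay in the cluster led by the endothelial gene Cldn5. Gm49980, Gucy1a1 and Dlg2 were also lower, at −1.46, −1.30 and −1.22.

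**Figure D2:**
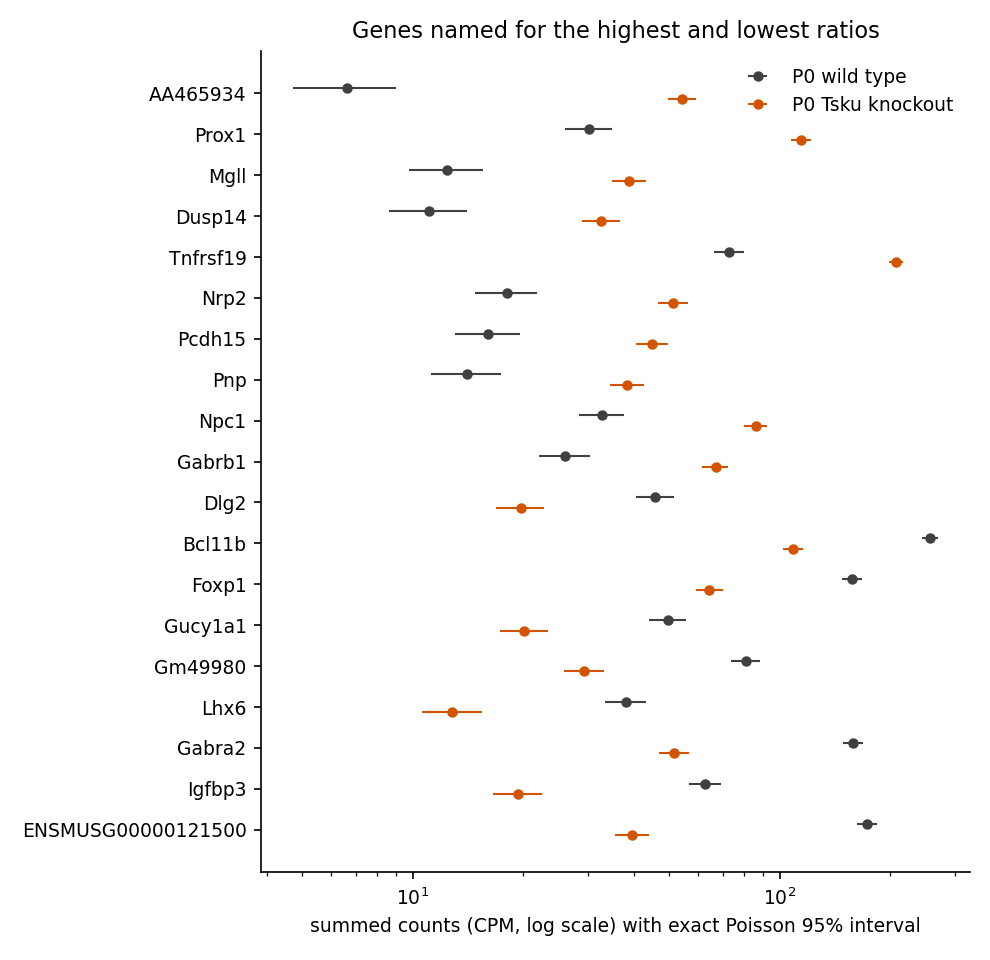
Level of the genes named for the highest and lowest ratios in P0 wild type (grey) and P0 Tsku knockout (orange), as summed counts in CPM on a log axis; bars are exact Poisson 95% intervals, which cover counting error only. AA465934 goes from 6.62 to 54.2 CPM and ENSMUSG00000121500 from 173 to 39.6 CPM; no pair of intervals overlaps.

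Most genes of the glial lineages had ratios above 0. All 25 tested genes of the oligodendrocyte lineage list lay above 0, 17 were called higher and none lower, and the median log2 ratio was 0.91 against 0.05 over all genes tested. The list's summed level was 3082 CPM in the wild type and 4564 CPM in the knockout. Pdgfra, the growth factor receptor that marks oligodendrocyte precursors, had 996 and 2887 counts (0.98 [0.87, 1.08]). Sox10, the lineage's transcription factor, had 98 and 267 counts (0.89), and Gpr17, a receptor of differentiating precursors, 103 and 366 (1.27). Olig1 and Olig2, the basic helix-loop-helix factors of the lineage, were not called, at 0.45 and 0.48. The cluster led by Lhfpl3, Pdgfra and Gpr17 held 32 wild-type barcodes (3.06%) and 117 knockout barcodes (8.15%). With the same cluster shares, the list's median was 0.18 with 3 of 25 genes called, and Pdgfra and Sox10 both stood at −0.10.

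Genes of myelin partly overlap that list and mark the step after the precursor. Of 11 tested, 6 were called higher and none lower, with a median of 0.91, and with the same cluster shares 5 of 10 were called at a median of 0.69. Mbp, myelin basic protein, had 75 and 271 counts (1.30 [0.92, 1.68]), with 10 and 186 of them in the cluster led by Lhfpl3, Pdgfra and Gpr17. Enpp6, an enzyme of newly forming oligodendrocytes, had 1 and 47 counts, a 31.9-fold ratio with a log2 interval from 2.45 to 10.33, and 41 of the latter lay in that cluster. A single barcode held 55.3% of the knockout counts of Enpp6 and 1 held 42.8% of those of Mbp. Without the top barcode of each library the log2 ratio of Mbp was 0.79. For Enpp6 no wild-type count was then left, so the value of 2.25 is the one that the count floor gives. It does not show how far the dominant knockout barcode alone moves the ratio. At equal cluster shares Mbp and Enpp6 stood at 0.96 and 4.20.

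Of 26 astrocyte genes 24 lay above 0, 15 were called higher, none lower, and the median was 0.63. Their summed level was 5464 CPM in the wild type and 8445 CPM in the knockout. Gfap, the astrocyte intermediate filament, had 103 and 530 counts (3.50-fold, log2 ratio 1.81). Apoe, the main lipid carrier of the brain, had 3198 and 10760 counts, or 529 and 1210 CPM (1.19 [1.14, 1.25]). Its counts were most numerous in the cluster led by microglial genes, with 1047 and 3468. Slc1a2, the glutamate transporter GLT-1, had 1454 and 4671 counts (1.13 [1.04, 1.21]), the water channel gene Aqp4 365 and 1049 (0.97 [0.79, 1.14]), and the angiotensinogen gene Agt 3 and 57 (3.69 [2.07, 6.01]). Of the 57 knockout counts of Agt, 40.4% lay in 1 barcode. The cluster led by Aqp4 held 69 wild-type barcodes (6.59%) and 165 knockout barcodes (11.5%). After reweighting to equal cluster shares, the list's median was 0.31, with 6 of 25 called: Gfap stood at 1.52, Apoe at 0.81, Slc1a2 at 0.76 and Aqp4, no longer called, at 0.56.

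Genes of radial glia and of neuron-producing progenitors differed less. Of 21 radial glia genes, 18 lay above 0, 4 were called higher and 2 lower, with a median of 0.28 that became −0.01 with the same cluster shares. Fabp7, the lipid-binding protein of radial glia and the list's most abundant member, stood at 4137 and 5022 CPM (0.28). Hes1, the Notch target that maintains progenitors, was called lower with 708 and 587 counts (−0.83 [−0.99, −0.67]), and stood at −1.09 with the same cluster shares. Hes5, the other main Notch target, was not called (0.25). Of 14 intermediate progenitor genes 3 were called higher, with a median of 0.15; Neurod4, a proneural factor, had 6 and 58 counts (2.72 [1.51, 4.22]). Eomes, which defines intermediate progenitors, was not called, at 154 and 177 CPM (0.20).

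Few genes of the cell cycle were called. Of 44 S-phase genes 1 was called higher (Ung, a uracil-DNA glycosylase, 0.66), and of 53 genes of G2 and mitosis none was called in either direction. The medians were 0.00 and −0.04. Top2a, the topoisomerase of dividing cells, stood at 326 and 301 CPM (−0.12), and Pcna, the replication clamp, at 288 and 321 CPM (0.15). None of 19 genes of G1 cyclins, kinases and inhibitors was called. Cyclin D2, Ccnd2, stood at 1679 and 1325 CPM (−0.34).

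Lists of cortical projection neurons had medians below 0. Of 12 genes shared by projection neurons, 4 were called lower and 2 higher (median −0.41), and their summed level was 2438 CPM in the wild type and 1751 CPM in the knockout. Of 18 upper-layer genes 5 were called lower and none higher (median −0.42), and of 19 deep-layer genes 5 lower and 2 higher (median −0.21). Neurod6, a differentiation factor of projection neurons, had 2915 and 2551 counts (−0.75 [−0.83, −0.67]). Mef2c, an activity-regulated factor of maturing neurons, had 2619 and 2078 (−0.89 [−0.98, −0.81]). Cux2, an upper-layer factor, had 1124 and 955 (−0.79 [−0.92, −0.67]). Tbr1, the factor of corticothalamic neurons, was not called (−0.37). Against this direction Fezf2, the factor of corticospinal neurons that early progenitors also express, had 115 and 396 counts (1.23 [0.92, 1.54]); 137 of its knockout counts lay in the 2 clusters made almost entirely of knockout barcodes. With the same cluster shares the medians of the shared, upper-layer and deep-layer lists were −0.09, −0.07 and −0.02, and Fezf2 stood at 1.14.

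Inhibitory neuron lists were divided. Of 15 genes shared by inhibitory neurons, 4 were called lower and 1 higher (median −0.25), and of 14 striatal genes 3 lower and 2 higher (median −0.45). Of 12 genes of interneurons from the medial ganglionic eminence 2 were called in each direction (median −0.41), and of 12 genes of those from the caudal ganglionic eminence 4 higher and 2 lower (median 0.22). Prox1, Calb2 and Reln, which are also in lists of other cell types, were among those 4. Without the 2 clusters made almost entirely of knockout barcodes, 2 of the 12 caudal genes were called higher and 1 lower (median 0.17). Sst, the interneuron peptide somatostatin, had 89 and 56 counts (−1.23 [−1.74, −0.73]). Six3, a striatal precursor factor, had 70 and 22 counts (−2.23 [−2.99, −1.52]). The cluster led by Lhx6 held 57 wild-type and 26 knockout barcodes, and the cluster led by Foxp2, Foxp1 and Six3 held 35 and 16. At equal cluster shares Sst stood at 0.06, and the medians of the shared, medial and caudal lists at 0.02, 0.06 and 0.03. The value for 9 of the 14 striatal genes was 0.03, but the cluster led by Foxp2, Foxp1 and Six3 is left out of it.

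There were 2 clusters made almost entirely of knockout barcodes. A cluster led by Ifi203, Nhlh2, Neurod1 and Nrp2 held 1 wild-type and 107 knockout barcodes, and a cluster led by genes of cilia (Rsph1, Ccdc153, Foxj1) held 4 and 47. Together they made up 0.478% of the wild-type and 10.7% of the knockout barcodes. Without these 2 clusters, 1090 of 13564 genes (8.04%) were called higher and 455 (3.35%) lower. Whether the clusters differ through genotype or through the tissue taken cannot be told apart with 1 mouse a side. Neurod1, a differentiation factor of granule and other excitatory neurons, had 427 and 1296 counts (1.04 [0.88, 1.20]), 824 of the latter in these clusters, and stood at −0.24 without them. Calb2, the calcium-binding protein calretinin, had 178 and 595 counts (1.18), and stood at 0.24 without them. Lhx9 kept a log2 ratio of 4.83 without them. Of 9 ependymal genes 5 were called higher and none lower; Foxj1, the master factor of motile cilia, had 72 and 233 counts (1.14), of which 33 and 192 lay in these clusters, and stood at −0.33 without them. Sspo, which encodes the protein of Reissner's fibre, had 0 and 147 counts. That is 33.3-fold higher with 3 counts put in for the 0, and the lower end of its log2 interval was 4.74. Of 12 Cajal-Retzius genes 8 were called higher and none lower (median 0.98); Reln, the secreted guidance protein of those cells, had 203 and 516 counts (0.79), 171 and 488 of them in a cluster of 2 wild-type and 8 knockout barcodes. Without the top barcode of each library, which held 68.0% of the wild-type counts of Reln, its log2 ratio was 1.92. Without the 2 clusters of mostly knockout barcodes, 6 of 11 Cajal-Retzius genes were called higher (median 0.71). At equal cluster shares, which leave out the cluster that held most Reln counts, none of 7 was called higher and 1 lower (median −0.29). Of 10 hippocampal and dentate genes 4 were called higher and none lower (median 0.46). Without the 2 clusters 3 of those 10 were called higher (median 0.04), and at equal cluster shares 2 of 9 (median 0.13).

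Of 43 Wnt pathway genes tested, 17 were called higher and none lower (median 0.35), and without the 2 clusters of mostly knockout barcodes 11 of 40 were called higher and 1 lower. The ligand Wnt8b, expressed at the medial edge of the cortex, had 2 and 48 counts (4.03 [2.10, 7.11]), 46 of the latter in those clusters. Rspo2, a Wnt agonist, had 8 and 47 counts (2.00), and the receptor Fzd10 9 and 116 (3.13 [2.16, 4.29]). Without those clusters Fzd10 stood at 1.72, and Rspo2 had too few counts to be tested. The pathway's feedback target Axin2 had 254 and 610 counts (0.71 [0.49, 0.92]), and Lef1, its nuclear effector, 47 and 159 (1.20 [0.72, 1.70]). Ctnnb1, Gsk3b and Apc, the shared cytoplasmic components, were not called, at −0.08, −0.20 and −0.14. After reweighting to equal cluster shares, Axin2 and Lef1 stood at 0.35 and 0.65, and 4 of 38 genes were called higher and 1 lower.

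Of the other pathways that Tsukushi is known to touch, 47 BMP, TGF-beta and activin genes had 8 called higher and 1 lower (median 0.16). The shares called higher, 17.0% for BMP, 12.9% for FGF, 3.45% for Notch, 7.14% for Hedgehog and 11.1% for NFI and gliogenic factors, stand beside 8.35% over all genes. Gdf10, a BMP-family ligand, had 17 and 175 counts (2.81 [2.09, 3.62]), 91 of the latter in the 2 clusters of mostly knockout barcodes; Inhba, the activin A subunit, had 124 and 90 (−1.02 [−1.43, −0.62]). The BMP targets Id2, Id3 and Id4 were not called, at 0.08, 0.31 and −0.24. Of 31 FGF and ERK genes 4 were called higher and none lower (median 0.06); the receptor Fgfr1 was not called (0.12). Of 29 Notch genes 1 was called higher, Dlk1, and 2 lower, Hes1 among them. Dlk1, a non-canonical ligand, had 13 and 59 counts (1.62), with 0 and 31 of them in the cluster led by Col1a2 and Col3a1. In the knockout, 1 barcode held 30.5% of them. At equal cluster shares, which leave out that cluster, Dlk1 stood at 0.95. Notch1 was not called (0.47). Of 14 Hedgehog genes Kif7, a kinesin of the primary cilium, was the only one called, with 37 and 98 counts (0.85). Of 27 NFI family and gliogenic factors 3 were called higher and none lower (median 0.30). Stat3, which transduces the gliogenic cytokine signal, had 397 and 1104 counts (0.92 [0.75, 1.09]), while Nfia and Nfib were not called, at 0.22 and 0.06. At equal cluster shares Stat3 stood at 0.27, and none of the 27 was called higher and 1 lower (median −0.02).

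Extracellular matrix families, to which Tsukushi itself belongs, held many genes called higher. Of 31 collagen genes 27 lay above 0, 20 were called higher and none lower (median 0.90), and their summed level was 360 CPM in the wild type and 696 CPM in the knockout. The fibrillar collagens Col3a1, with 86 and 523 counts (2.05 [1.72, 2.39]), and Col1a2, with 297 and 1315 (1.59 [1.41, 1.78]), had most counts in the cluster led by Col1a2 and Col3a1, which held 6 wild-type and 18 knockout barcodes and is left out of the second value. Col9a3, a chain of collagen IX, had 222 and 651 counts (0.99 [0.77, 1.22]), and Col4a2, a chain of basement membrane collagen, 210 and 485 (0.65 [0.41, 0.89]). With the same cluster shares 5 of 25 collagens were called higher and 1 lower (median 0.34), and Col4a2 and Col9a3 stood at 0.89 and 0.79. Col3a1 and Col1a2 are among those called higher, on the smaller part of their counts, outside the cluster they lead.

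Of 28 lecticans, tenascins and partners, 27 lay above 0, 15 were called higher and none lower (median 0.69), with summed levels of 4070 and 5909 CPM. Bcan, the brain-specific lectican brevican, had 1217 and 3357 counts (0.91 [0.81, 1.00]). Cspg5, the transmembrane proteoglycan neuroglycan C, had 1444 and 3930 (0.89 [0.80, 0.97]), and the glycoprotein Tnc, tenascin C, 1960 and 4762 (0.72 [0.65, 0.80]). At equal cluster shares 4 of 28 were called, the median was 0.33, and Bcan, Cspg5 and Tnc stood at 0.39, 0.46 and 0.43. Of 9 small leucine-rich proteoglycans, 3 were called higher and Tsku lower. Dcn, decorin, had 68 and 177 counts (0.82), with 68 and 162 of them in the cluster led by Col1a2 and Col3a1. Bgn, biglycan, was not called (0.28). At equal cluster shares, which leave out that cluster, none of the 4 members still tested was called, and Tsku was not among them. Of 35 laminin, integrin and basement membrane genes 12 (34.3%, beside 8.35% over all genes) were called higher and none lower (median 0.48). With the same cluster shares 6 of 34 were called higher and none lower (median 0.29).

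**Figure D3:**
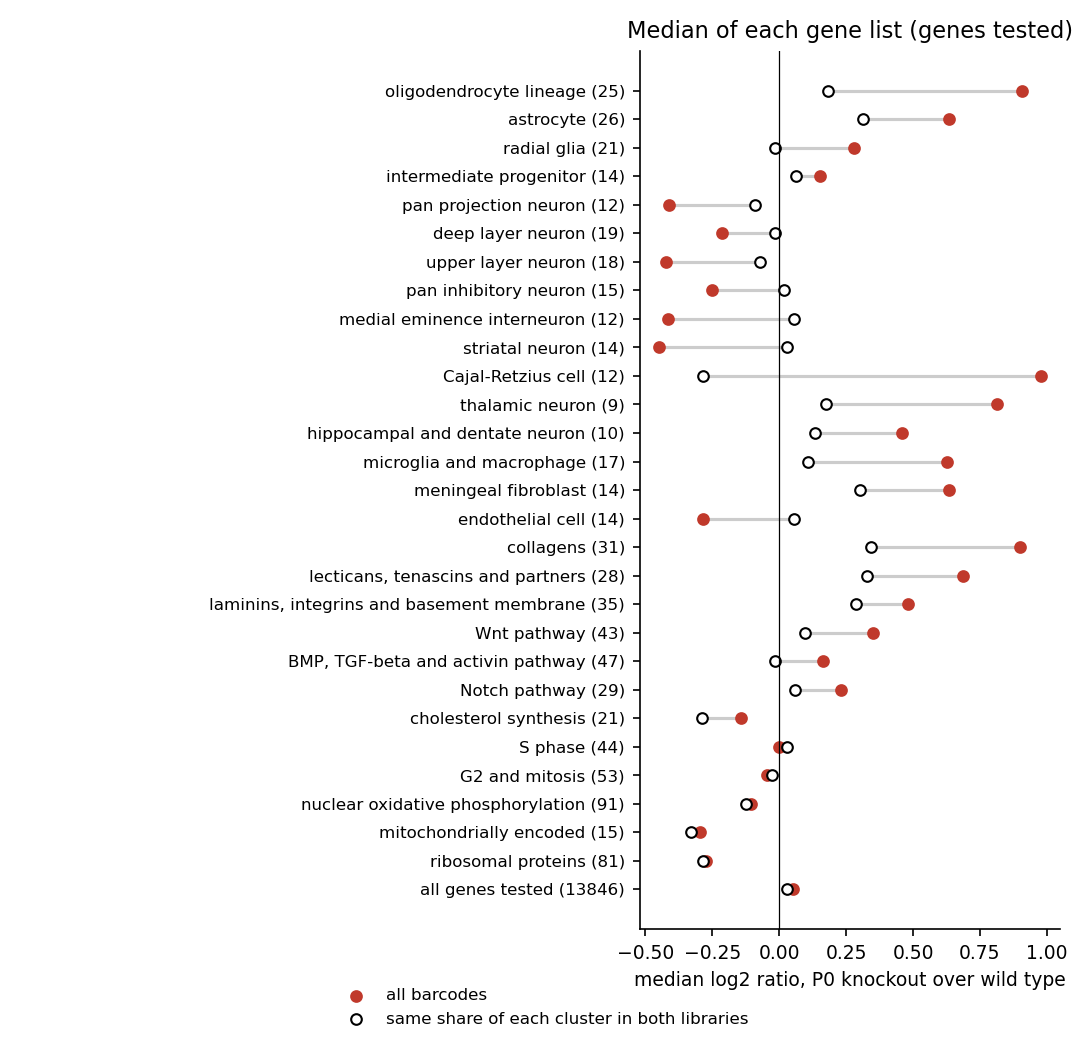
Median log2 ratio of P0 knockout to wild type over the tested genes of each list (number in parentheses); filled red points use all barcodes, open points give each of 16 clusters the same share in both libraries. The oligodendrocyte lineage median goes from 0.91 to 0.18 and that of upper-layer genes from −0.42 to −0.07, while ribosomal protein genes stay at −0.28.

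All 17 tested microglia and macrophage genes lay above 0 and 10 were called higher (median 0.63). Cx3cr1, the fractalkine receptor of microglia, had 515 and 1170 counts (0.63 [0.48, 0.78]), and Pf4, a chemokine gene of border macrophages, 83 and 365 (1.58 [1.23, 1.94]); 67.5% of the wild-type counts of Pf4 lay in 1 barcode, and without the top barcodes it stood at 2.87. The cluster led by microglial genes held 21 wild-type and 43 knockout barcodes, and with the same cluster shares the median was 0.11 and Pf4, at 1.14, was the 1 gene called. Of 14 endothelial genes 4 were called lower and none higher (median −0.28). The tight-junction gene Cldn5 had 970 and 867 counts (−0.72 [−0.85, −0.59]), and Slc2a1, the glucose transporter of the blood-brain barrier, 506 and 340 (−1.13 [−1.33, −0.93]). The cluster led by Cldn5 held 23 barcodes in each library, 2.20% and 1.60% of all. Of the 14, 1 was called lower at equal cluster shares (median 0.06), and Cldn5 and Slc2a1 stood at −0.23 and −0.88. Of 10 pericyte and mural cell genes 3 were called higher and none lower (median 0.16). Of 9 erythroid genes 3 were called higher and 1 lower. The paralogous globins split, with Hba-a2 at 1.29 (−0.074 under a stricter barcode filter) and Hba-a1 at −0.45, and near-identical copies can exchange reads.

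Genes that respond to stress and dissociation were mixed. Of 27 immediate early genes 4 were called higher and 2 lower (median 0.28); Fos, the most used marker of recent activation, stood at 972 and 1396 CPM (0.52). After reweighting to equal cluster shares, none was called higher and 2 lower (median 0.02), with Fos at 0.12. Of 24 heat shock and unfolded protein genes none was called higher and 1 lower (median 0.07). Their part in the other results was not tested.

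**Figure D4:**
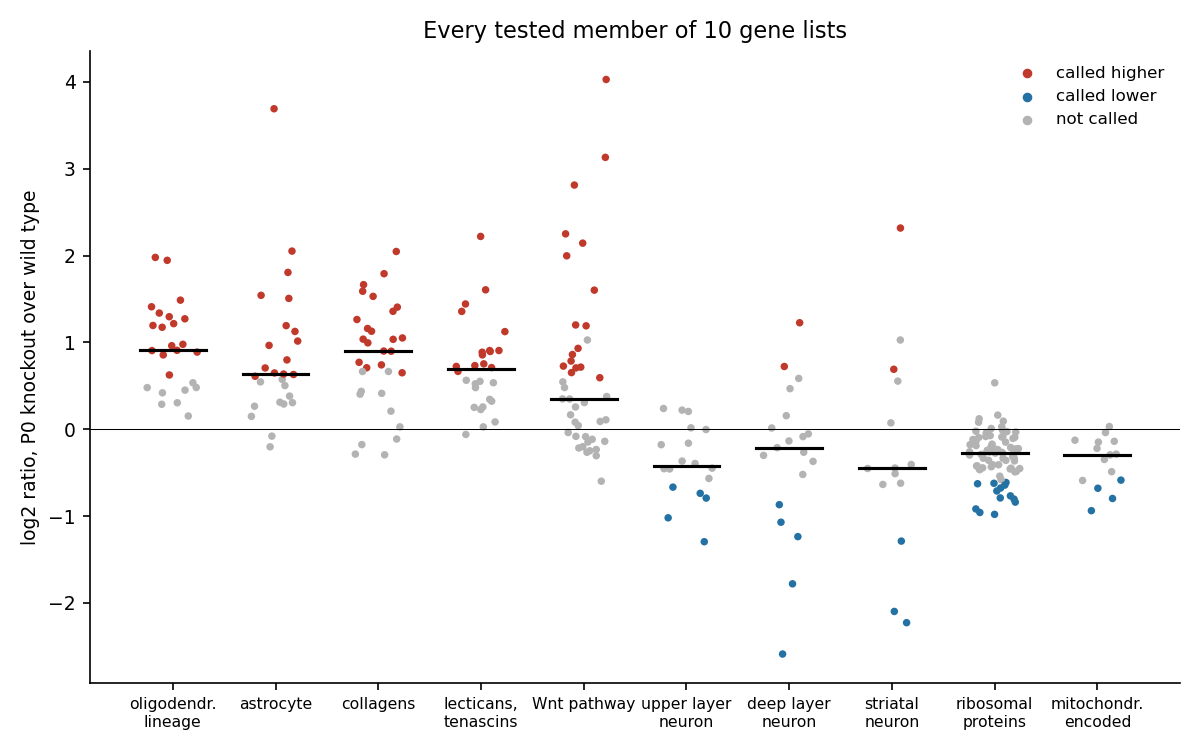
Log2 ratio of P0 knockout to wild type for each tested member of 10 gene lists; each point is a gene, red where called higher, blue where called lower, grey where not called, and the black bar is the list's median. The members of the oligodendrocyte list all lie above 0, 7 of 81 ribosomal protein genes do, and the Wnt list spreads up to 4.03 (Wnt8b).

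Cholesterol is made by most newborn brain cells and carried between them on lipoproteins. None of the 21 synthesis genes was called; 5 lay above 0, with a median of −0.14, and with the same cluster shares 2 lay above 0, with a median of −0.29. Hmgcs1, an early enzyme of the pathway, stood at 589 and 529 CPM (−0.15). Of 28 genes of uptake, export and control 4 were called higher and 1 lower: beside Apoe and Npc1, the sterol exporters Abca1, with 518 and 1226 counts (0.68 [0.54, 0.84]), and Abcg1, with 228 and 535 (0.67 [0.45, 0.90]), were higher. Stard4, a sterol carrier, was lower with 547 and 499 counts (−0.69 [−0.87, −0.51]). With the same cluster shares 2 of 27 were called higher and 1 lower, and Abca1 and Abcg1 both stood at 0.52 and were not called.

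Ribosomal protein and mitochondrially encoded genes were mostly below 0. Of 81 ribosomal protein genes, 7 lay above 0, 13 were called lower and none higher (median −0.28), and their summed level was 53879 CPM in the wild type and 44653 CPM in the knockout. After reweighting to equal cluster shares, the median was −0.28 and again 13 were called. Rps28 had 4954 and 3696 counts (−0.98 [−1.04, −0.92]), Rpl38 2426 and 1890 (−0.92 [−1.01, −0.83]) and Rps29 3361 and 2859 (−0.79 [−0.86, −0.72]), whereas Rps14 was not called (0.08). Of 15 mitochondrially encoded genes 4 were called lower and none higher (median −0.30); mt-Co2, a subunit of complex IV, had 751 and 577 counts (−0.94 [−1.10, −0.78]). Of 91 nuclear genes of oxidative phosphorylation 3 were called lower (median −0.11), a share of 3.30% near the 3.26% over all genes. Ndufb1, a nuclear-encoded subunit of complex I, was 1 of them, at −0.70. In the E14.5 pair these genes also had ratios below 0: Rps28, Rpl38, Rps29, mt-Co2 and Ndufb1 stood there at −3.02, −1.81, −2.23, −1.67 and −1.78, and the median of the ribosomal list was −0.50. Ribosomal protein genes have many processed pseudogenes, which can take some of their reads.

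Of the metallothioneins, small cysteine-rich proteins that bind zinc and copper, 2 were called lower in the knockout. Mt3, the brain form, had 2033 and 1650 counts (−0.86 [−0.95, −0.76]) and Mt2 971 and 769 (−0.89 [−1.03, −0.76]). Mt1 was just under the threshold with 938 and 950 counts (−0.54 [−0.67, −0.41]). With the same cluster shares Mt1, Mt2 and Mt3 were all called lower, Mt1 at −1.01, Mt2 at −1.39 and Mt3 at −1.09. The E14.5 values were −0.43, −1.06 and −1.45. The 250 bases before the start of the 2 called genes are printed because both of these linked family members were called lower; they come from RefSeq on GRCm38.p6, forward strand, while the deposited files use GRCm39. Capitals mark matches to TGCGCNC or TGCACNC, the core letters of metal response elements, on either strand.
Mt2, chr8:94172368-94172617: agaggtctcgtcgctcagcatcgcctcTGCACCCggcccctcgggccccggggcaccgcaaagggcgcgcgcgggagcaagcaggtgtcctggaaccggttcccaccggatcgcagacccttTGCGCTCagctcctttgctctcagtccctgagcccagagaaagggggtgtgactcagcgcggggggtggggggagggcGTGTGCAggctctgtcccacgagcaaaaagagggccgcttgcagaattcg
Mt3, chr8:94152357-94152606: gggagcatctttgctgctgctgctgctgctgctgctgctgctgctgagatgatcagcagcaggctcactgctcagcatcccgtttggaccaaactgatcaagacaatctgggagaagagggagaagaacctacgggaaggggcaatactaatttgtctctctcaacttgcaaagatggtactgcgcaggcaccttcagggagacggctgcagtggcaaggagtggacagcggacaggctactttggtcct
The Mt2 window held 3 matches, that of Mt1 held 1 and that of Mt3 held 0. Each window is set by a single RefSeq start, and matches beyond it were not counted. Of 32851 promoter windows of the same length, 21.4% held at least 1 match and 1.26% at least 3.

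Among 23 long noncoding RNAs, 3 were called higher and 3 lower. Rmst, a transcript of midline and dopaminergic progenitors, had 12 and 191 counts (3.43 [2.60, 4.41]), 152 of the latter in the 2 clusters of mostly knockout barcodes. The microRNA host Mir124-2hg had 768 and 525 counts (−1.11 [−1.27, −0.94]), and Mir9-3hg, host of a microRNA of neural progenitors and neurons, 506 and 1287 (0.79 [0.64, 0.94]). The 2 hosts thus lay on opposite sides, and with the same cluster shares they stood at −0.61 and 0.56. Counts of a host transcript are not a measure of its mature microRNAs, which these libraries do not capture. The mature products of the miR-9 hairpin are shown to identify what the host carries (RefSeq on GRCm38.p6, forward strand), with the seed, bases 2 to 8, in capitals.
mmu-miR-9-5p, chr7:79505279-79505301: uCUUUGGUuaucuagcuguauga
mmu-miR-9-3p, chr7:79505318-79505339: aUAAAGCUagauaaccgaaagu
The 2 arms carry different seeds.

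Genes within 5 Mb of Tsku on chromosome 7 in RefSeq's GRCm38.p6 gene table were described apart, since they lie beside the deleted gene. Of 68 tested neighbours, Tsku left out, 8 were called higher and 2 lower (median 0.15); these are 11.8% and 2.94%, near the 8.35% and 3.26% over all genes. Thrsp, a regulator of lipogenesis, had 62 and 343 counts (1.91 [1.52, 2.32]) and stood at 1.54 with the same cluster shares. Serpinh1, a collagen chaperone, had 235 and 614 (0.83), and Kctd21 was lower with 28 and 16 (−1.37). At E14.5 Thrsp stood at 6.78 CPM in the wild type and 1.94 CPM in the library labelled knockout.

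The P0 calls were set beside those of the E14.5 pair, which shares no library with them. Of 14136 genes tested at E14.5, 1100 (7.78%) were called higher and 1276 (9.03%) lower in the library labelled knockout. Over the 13306 genes tested at both ages, 1027 were called higher at P0 and 992 at E14.5, and 109 at both (10.6% of the P0 calls and 11.0% of the E14.5 calls). Another 167 of the P0 calls (16.3%) were called lower at E14.5. Of lower calls there were 429 and 1185, with 121 at both (28.2% and 10.2%). AA465934 and ENSMUSG00000121500 were called in the same direction at both ages.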

How the data were processed

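The authors deposited, for each of 4 libraries, a sparse matrix of whole-number counts per gene and cell barcode with its gene and barcode lists; the counts carry no normalization in the files. Per the submitters' processing notes, FastQC 0.12.1, R 4.3.2, Seurat 5 and the build GRCm39 were used; for the aligner, the counting tool and the annotation, none is named: not given in the sources used here. Barcodes passing the filters stated above were summed per library, without removal of doublets. Ratios of sums carry conditional binomial (Clopper-Pearson) 95% intervals and levels carry exact Poisson 95% intervals, which cover counting error only. A sum of 0 was set to 3 counts for ratios. Genes were called at 1.5-fold or more with an interval excluding 1, over genes with at least 30 counts. Clusters (scanpy 1.11.5, Leiden, 2000 variable genes, 30 components, 24 clusters) served to reweight sums. Reweighted values kept the interval widths of the unweighted sums. The genes named are Tsku, the 10 highest and 10 lowest ratios among called genes with at least 300 counts and no barcode above 10% of a library's counts of the gene, the 4 most abundant and the most extreme called members of each list, and called neighbours of Tsku; other genes named were chosen after their values were seen, and a few that the rule names are not reported here. The gene lists and the members were chosen with earlier results of these data known. Calculations used Python 3.11.15 and scipy 1.17.1, with edgeR 4.0.16 and DESeq2 1.42.0 for alternative scaling factors only, and were tested on simulated data. Alternatives covered scaling, count minimum, fold threshold, barcode filters, thinning, barcode weights and cluster makeup.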

Additional observations from a re-analysis of the deposited data

Results flagged for a closer look

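For 12 of the genes printed above, the E14.5 pair differed in the opposite direction to the P0 pair, by a called difference at both ages. Of these, 11 were higher at P0 and lower at E14.5. Most opposite calls over all genes tested at both ages ran the same way. Of 1027 genes called higher at P0, 167 (16.3%) were called lower at E14.5, and of 429 called lower, 27 (6.29%) were called higher. Among genes of matrix and lipid metabolism, the log2 ratios at P0 and E14.5 were 0.91 and −0.82 for Bcan, 0.89 and −0.77 for Cspg5, and 1.91 and −1.80 for Thrsp. Among receptors they were 1.51 and −0.76 for Nrp2, 1.36 and −0.62 for Gabrb1, and 3.13 and −0.76 for Fzd10. Genes of small cell groups gave 1.14 and −0.73 for Foxj1, 0.79 and −0.84 for Reln, and 1.58 and −1.18 for Pf4. The noncoding RNA Rmst stood at 3.43 and −0.64, and the globin gene Hba-a2 at 1.29 and −0.84. Lhx6, a factor of interneurons from the medial ganglionic eminence, was the exception in direction, at −1.57 and 0.63. The difference between the ages was not tested, since each group is 1 library, and the library labelled E14.5 knockout contains Tsku transcripts.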

How the results depend on the processing

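No paired analysis was possible because each group is 1 library. Both scalings, the stricter and the open barcode filter, the removal of the deepest barcodes, equal weight per barcode, the removal of each gene's top barcode, a total without mitochondrial, ribosomal protein and haemoglobin genes, and no count minimum each kept the numbers of calls within 1.5 times of 1156 higher and 451 lower. A minimum of 100 counts gave 752 higher and 295 lower, a threshold of 2-fold 488 (3.52%) and 143 (1.03%), thinning each barcode to 1500 counts 675 higher, and the same cluster shares 540 higher. Leaving out the 2 clusters of mostly knockout barcodes gave 1090 higher and 455 lower calls, with 933 of 1080 (86.4%) and 370 of 444 (83.3%) of the tested calls kept. Over 118 printed genes other than Tsku and 1498 recomputed values, 36 lost their call in the same direction, 26 of them with the same cluster shares, and 12 values of called genes changed sign. With the same cluster shares the called genes whose sign changed were Foxj1 (−0.35), Gucy1a1 (0.16), Hba-a2 (−0.45), Neurod1 (−0.017), Nhlh2 (−0.069), Pdgfra (−0.10), Reln (−0.44), Sox10 (−0.10) and Sst (0.057). Without the 2 clusters, Foxj1 stood at −0.33 and Neurod1 at −0.24, and under the stricter barcode filter Hba-a2 stood at −0.074. Without each gene's top barcode Wnt8b stood at 4.69 and Nhlh2 at 2.41. Under the stricter barcode filter Enpp6 stood at 3.40, with a wild-type sum below the floor of 3 counts. For Reln, Foxj1, Gucy1a1, Hba-a2, Neurod1 and Nhlh2 the equal-share value leaves out the cluster that held the most of their counts. Tsku stayed called lower wherever it was tested. The clusters were computed from the same counts as the ratios, so equal cluster shares are a reweighting and not an independent measure. With 30 counts over both sums, only ratios well beyond 1.5-fold can be called; genes of lower counts are not described.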

Other observations

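Among genes outside the lists, Ccn2, which encodes a matricellular growth factor, had 135 wild-type and 33 knockout counts at P0 (log2 ratio −2.59 [−3.19, −2.03]). It stood at −2.25 with the same cluster shares, and at E14.5 the levels were 9.63 CPM in the wild type and 2.15 CPM in the library labelled knockout. Edn1, the gene of the vasoconstrictor peptide endothelin-1, had 49 and 12 P0 counts (−2.59 [−3.63, −1.66]), and stood at 8.11 and 1.35 CPM. Its E14.5 levels were 6.06 and 2.92 CPM. Both genes were chosen after their values were seen.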
